A study of Mus musculus with 6 samples.

Results

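The genes examined here build and maintain the mitochondrion: the translocases and chaperones that import proteins, the enzymes that fuse and divide the organelle, and the factors that transcribe and copy its genome. They were all genes whose platform symbol starts with Timm or Tomm, together with Mfn1, Mfn2, Opa1, Dnm1l, Fis1, Mff, Tfam, Tfb1m, Tfb2m, Polg, Polg2, Polrmt, Twnk and Ssbp1. The platform annotation held 40 of them, and 38 of the 17720 genes measured by a probe set with 1 symbol were members. Tomm5 and Tomm6 lay only on probe sets with a second symbol and were not analysed here. For 24 members with several probe sets, the one with the highest mean over the 6 arrays was used.

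Adipocyte RNA from mice was hybridised to 6 arrays, 2 per group. Marrow-derived adipocytes were sorted by a donor marker from the fat cell fraction of gonadal fat, in mice that had been given marrow of marked donors. Replicate 1 was sorted for green fluorescent protein (GFP) and replicate 2 for LacZ, the bacterial beta-galactosidase, so the replicates of this group differ in marker and donor. The promoter that drives either marker is not given in the sources used here. Brown adipocytes came from the fat between the shoulder blades, named Intrascapular brown adipocytes in the labels, and white adipocytes from gonadal fat. The protocol read here, that of a marrow-derived sample, pooled at least 6 sorts of about 5000 cells. The protocols name sorted or floated cells, and where groups differ in this, isolation cannot be told apart from group. The labels used here give no strain, sex, age or further allele for donors, hosts or the other mice, and they name no treatment beyond the transplant. Biological replicates are named, but not whether they were different mice. The p-values below therefore reflect how far these particular samples differed, part of which may be technical.

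Nearly all mitochondrial proteins are encoded in the nucleus and imported through the TOM channel of the outer membrane. From there, small Tim chaperones, the TIM22 carrier translocase or the TIM23 presequence translocase pass them on. Mitofusins and Opa1 join the outer and inner membranes of neighbouring mitochondria, and the GTPase Dnm1l, recruited by adaptors such as Mff and Fis1, divides them. The mitochondrial genome is packaged and transcribed with Tfam, Polrmt and Tfb2m and copied by the polymerase Polg with the helicase Twnk. Brown adipocytes are known for dense mitochondria that make heat, and white adipocytes hold fewer.

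Values are log2 expression per probe set, on a scale that ran from 1.67 to 13.97 over the arrays, with array medians from 5.46 to 5.72. A log2 difference is followed by the standard error (SE) from limma, with n = 2 arrays per group, and by a p-value adjusted over all 17720 genes. A gene is said to be lower or higher, to fall or to rise only where that adjusted p was under 0.05. Array signals were not set against each other between genes. Precision is limited by having only 2 arrays in each group.

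The labels were checked against markers. The 12 measured adipocyte markers averaged log2 11.95 and 11.02 in the GFP and LacZ arrays, 12.70 and 12.76 in brown arrays and 12.80 and 12.97 in white arrays, and 5 of the 12 were lower in marrow-derived than in white and 4 lower than in brown. Ucp1, which uncouples respiration in brown fat, was at 7.68 and 4.93 in marrow-derived arrays, 13.58 and 13.53 in brown arrays and 6.43 and 4.84 in white arrays. The 12 endothelial markers averaged 11.6 and 12.1 in marrow-derived arrays, 11.1 and 10.6 in brown arrays and 8.57 and 7.51 in white arrays, and all 12 were higher in marrow-derived than in white. The 16 macrophage markers averaged 11.6 with GFP and 8.91 with LacZ, 9.13 and 8.41 in brown arrays and 11.6 and 10.2 in white arrays, and none passed in any limma comparison, 3 having an unadjusted p under 0.05 for brown against white and 0 in the others. None of these 3 lists had a member that stayed near background on all arrays. The 10 fibroblast markers averaged 10.7 and 10.5 in marrow-derived arrays, 8.68 and 8.01 in brown arrays and 10.04 and 9.03 in white arrays. Skeletal muscle markers (10) averaged 7.36 in brown replicate 1 and 5.50 in brown replicate 2, and 4.99 to 6.10 on the other arrays.

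Marrow-derived arrays had the lowest values for most of these genes and brown arrays the highest. The group means ran marrow-derived, then white, then brown in 28 of the 38 members (73.7%), as they did in 20.1% of all genes. The brown mean was the highest in 34 members (89.5%, and 27.9% of all genes). The marrow-derived mean was the lowest in 29 (76.3%, and 40.6% of all genes). Fis1, an adaptor of fission, Tomm34, a cytosolic cochaperone of import, and Timm10b, a small Tim protein, had their lowest mean in brown. The 3 comparisons share arrays with one another, so their counts are not independent.

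**Figure D1:**
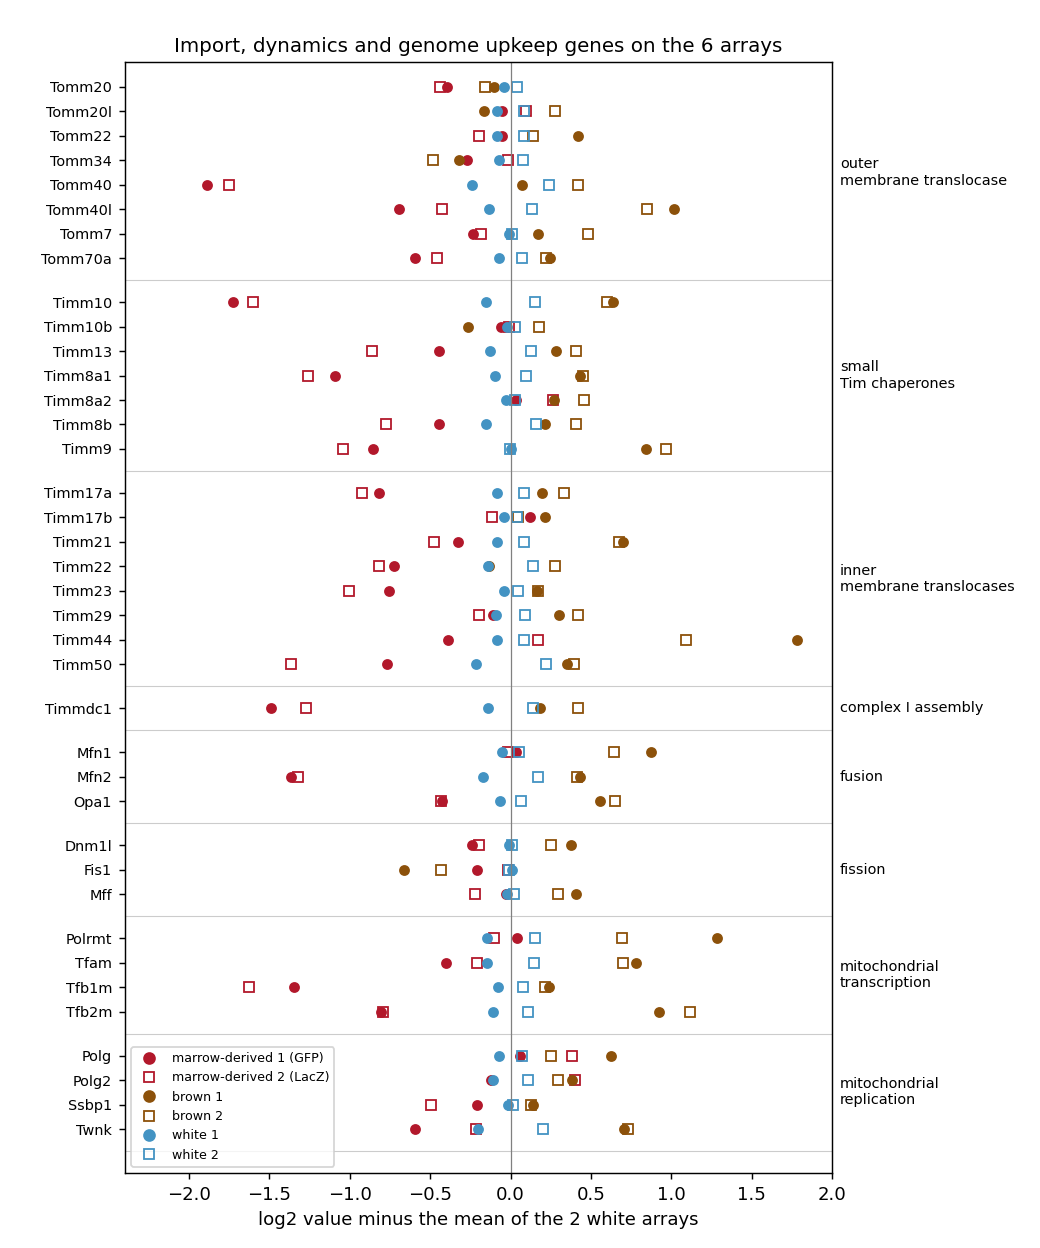
Log2 value of each of the 38 members on the 6 arrays, minus the mean of the 2 white arrays; red, brown and blue are marrow-derived, brown and white, filled circles replicate 1 and open squares replicate 2. Marrow-derived points lie left of brown points for most members, with Fis1 and Tomm34 the other way round.

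Against white adipocytes, 11 of 38 members (28.9%) were lower in marrow-derived adipocytes, where 13.6% of all genes were lower. No member was higher, where 12.2% of all genes were, and at an unadjusted p under 0.05 in limma there were 18 lower and 0 higher. Of all 17720 genes, 6869 had such a p in either direction. The median difference was -0.40 over the members and -0.07 over all genes. Both marrow-derived arrays lay below both white arrays in 27 members (35.8% of all genes did) and above them in 1 (28.5% of all genes), and they overlapped in 10. The arrays cannot tell less RNA of these genes per adipocyte from a smaller share of adipocytes in the sample. On the same arrays 12 of 12 endothelial markers were higher than in white, 3 of 10 fibroblast markers were higher with 1 lower, and 5 of 12 adipocyte and 4 of 5 white adipocyte markers were lower. Of 14 brown adipocyte markers 3 were lower and 1 higher, and of 10 skeletal muscle markers 3 were lower and 1 higher. Their part in the result was not tested. The count was 7 without the LacZ array, 6 and 4 without white replicates 1 and 2, and 7 without either brown array, which enters only through the shared estimate of the spread.

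Against brown adipocytes, 23 of 38 members (60.5%) were lower in marrow-derived adipocytes, where 11.7% of all genes were lower. No member was higher, where 8.71% of all genes were, and at an unadjusted p under 0.05 in limma there were 28 lower and 0 higher. Of all 17720 genes, 6364 had such a p in either direction. The median difference was -0.96, against 0.02 over all genes, and 19 of the 23 members were at least 2-fold lower. Both marrow-derived arrays lay below both brown arrays in 31 members (32.0% of all genes did) and above them in 2 (33.0% of all genes). On the same arrays 4 of 12 adipocyte, 12 of 14 brown adipocyte, 2 of 5 white adipocyte and 1 of 10 skeletal muscle markers were lower than in brown. Of the others, 5 of 10 fibroblast markers were higher with 1 lower, and 1 of 12 endothelial markers was higher; their part in the result was not tested. The calls rested on having both brown arrays: 3 members were lower without brown replicate 1 and 1 without brown replicate 2, while 16 to 18 were without any one of the other arrays.

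Fewer members passed between brown and white adipocytes. Of 38 members 3 (7.89%) were higher in brown, near the 5.34% of all genes that were, and none was lower, where 3.87% of all genes were. At an unadjusted p under 0.05 in limma there were 13 members, 12 higher and Fis1 lower. Of all 17720 genes, 4625 had such a p in either direction. The median difference was 0.34 over the members and -0.02 over all genes. Beside them, 10 of 12 endothelial and 8 of 14 brown adipocyte markers were higher in brown than in white, 4 of 10 fibroblast markers were lower with 1 higher, and 3 of 5 white adipocyte markers were lower; their part in the result was not tested. Both brown arrays lay above both white arrays in 31 members (29.7% of all genes did) and below them in 3 (32.4% of all genes). The count of 3 was 0 without any one white or brown array, and 1 with the replicate number as a block.

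**Figure D2:**
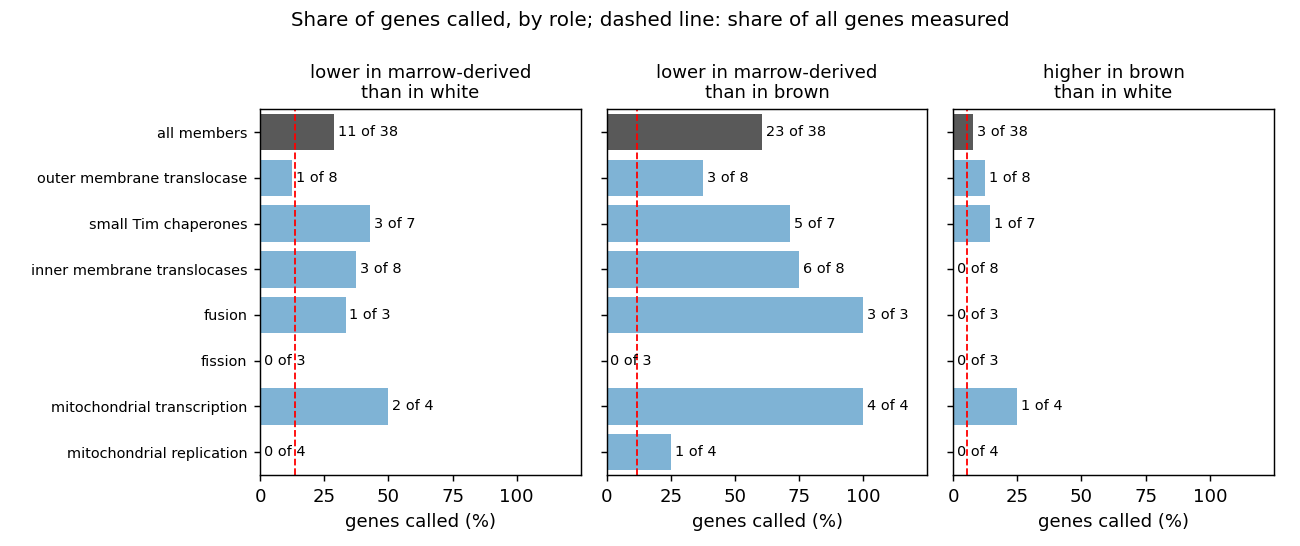
Percentage of members called in the direction named above each panel, by role, with counts beside the bars; the dashed line is the share of all 17720 genes called the same way. In the middle panel 23 of 38 members are lower against a line at 11.7%, and fission has 0 of 3.

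Markers of macrophages differed far more between the GFP and LacZ arrays than these genes did. Other lists differed as well. T, B and NK cell markers averaged 6.63 with GFP and 4.87 with LacZ, and brown adipocyte markers 6.39 and 5.03. Adipocyte markers averaged 11.95 and 11.02, and fibroblast markers 10.7 and 10.5. Endothelial markers, at 11.6 and 12.1, were the other way round. Beside the macrophage means given above, the median GFP minus LacZ difference over the members was -0.00345 and the largest in either direction was 0.59, in Timm50. Over the members the root mean square difference was 0.249 between the GFP and LacZ arrays, 0.246 between the brown arrays and 0.218 between the white arrays. Over all genes the same measure was 0.766 for the GFP and LacZ arrays, 0.396 for the brown pair and 0.593 for the white pair. Set against white on its own, the GFP array had a median member difference of -0.40 and the LacZ array one of -0.43. Against brown the medians were -0.81 for the GFP array and -0.94 for the LacZ array.

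Of 8 measured genes grouped under the outer membrane translocase, 1 was lower in marrow-derived than in white (12.5%, near the 13.6% of all genes). The 8 include the cytosolic cochaperone Tomm34, and Tomm20l, whose values lay near background. Against brown, 3 were lower in marrow-derived (37.5%, and 11.7% of all genes). Between brown and white, 1 was higher in brown (12.5%, and 5.34% of all genes). Tomm40, the channel of the complex, stood at 6.73 and 6.87 in marrow-derived arrays, 8.69 and 9.04 in brown arrays and 8.38 and 8.86 in white arrays. Its marrow-derived values lay apart from all 4 others, while brown and white overlapped. It was 3.53-fold lower in marrow-derived than in white (-1.82 ± 0.24, adjusted p = 0.00772) and 4.18-fold lower than in brown (-2.06 ± 0.24, adjusted p = 0.00687).

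Tomm40l, a paralog of the channel gene, had the same order of group means but other calls. It stood at 8.89 and 9.16 in marrow-derived arrays, 10.60 and 10.44 in brown arrays and 9.46 and 9.72 in white arrays, with no overlap between any groups. It was lower in marrow-derived than in brown (-1.49 ± 0.19, adjusted p = 0.00895) and higher in brown than in white (0.93 ± 0.19, adjusted p = 0.0457), while its difference between marrow-derived and white was -0.56 ± 0.19 (adjusted p = 0.092). Relative to white, Tomm40 differed by 1.26 more than Tomm40l in marrow-derived arrays on the log2 scale, a contrast that was not tested. A second Tomm40l probe set differed by 0.80 between marrow-derived and white (adjusted p = 0.177), in the opposite direction.

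Tomm70a, Tomm20 and Tomm22 are the receptors that recognise precursor proteins. Tomm70a, which takes up carrier proteins, stood at 10.34 and 10.48 in marrow-derived arrays, 11.18 and 11.16 in brown arrays and 10.87 and 11.01 in white arrays. It was lower in marrow-derived than in brown (-0.76 ± 0.16, adjusted p = 0.0303) and differed from white by -0.52 ± 0.16 (adjusted p = 0.0665). Tomm20, the presequence receptor, stood at 11.29 and 11.25 in marrow-derived arrays, 11.58 and 11.53 in brown arrays and 11.65 and 11.72 in white arrays. Its marrow-derived values were the lowest, but the differences of -0.29 ± 0.15 from brown (adjusted p = 0.238) and -0.42 ± 0.15 from white (adjusted p = 0.103) did not pass, and the 6 Tomm20 probe sets did not share a sign between brown and white. Tomm22, the central receptor, and Tomm7, a small subunit, differed by -0.40 and -0.54 between marrow-derived and brown and did not pass. Tomm34 and Tomm20l, a Tom20-like gene whose values of 2.38 to 2.82 lay near background, passed in no comparison.

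The small Tim chaperones escort hydrophobic proteins across the space between the membranes. On the probe sets used, they held the largest difference of all members. Of 7 measured, 3 were lower in marrow-derived than in white (42.9%, and 13.6% of all genes) and 5 were lower than in brown (71.4%, and 11.7% of all genes). Timm10, which forms a chaperone ring with Timm9, stood at 9.18 and 9.30 in marrow-derived arrays, 11.54 and 11.50 in brown arrays and 10.75 and 11.06 in white arrays. It was 4.86-fold lower in marrow-derived than in brown (-2.28 ± 0.18, adjusted p = 0.00345) and 3.17-fold lower than in white (-1.67 ± 0.18, adjusted p = 0.00552). Both calls held under all 14 alternatives tried.

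Timm9, its partner in the ring, stood at 8.87 and 8.69 in marrow-derived arrays, 10.57 and 10.70 in brown arrays and 9.73 and 9.72 in white arrays. The groups did not overlap in any comparison, and all of them passed. The differences were -1.85 ± 0.16 for marrow-derived against brown (adjusted p = 0.00398), -0.95 ± 0.16 for marrow-derived against white (adjusted p = 0.0144) and 0.91 ± 0.16 for brown against white (adjusted p = 0.0329). A second Timm9 probe set differed by 0.35 between marrow-derived and white (adjusted p = 0.567).

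Timm8a1 is the mouse counterpart of the gene mutated in a human deafness and dystonia syndrome. It stood at 9.58 and 9.40 in marrow-derived arrays, 11.10 and 11.11 in brown arrays and 10.57 and 10.76 in white arrays, and it was lower in marrow-derived than in brown (-1.61 ± 0.17, adjusted p = 0.00564) and than in white (-1.17 ± 0.17, adjusted p = 0.00932). Its partner Timm13 and the related Timm8b were lower in marrow-derived than in brown (-1.002 and -0.92, adjusted p = 0.0314 and 0.037). Against white they differed by -0.65 and -0.61 and did not pass. Timm10b, a small Tim protein that in human cells belongs to the TIM22 complex, stood between 9.67 and 10.11 on all arrays, with a difference of 0.01 between marrow-derived and brown (95% interval -0.50 to 0.52). Timm8a2 had values of 2.28 to 2.77, near background.

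Inner membrane translocases had 8 measured members, of which 6 were lower in marrow-derived than in brown and 3 lower than in white. The shares of all genes that were lower were 11.7% against brown and 13.6% against white. Timm23, the channel subunit, stood at 11.83 and 11.58 in marrow-derived arrays, 12.75 and 12.76 in brown arrays and 12.54 and 12.63 in white arrays. The marrow-derived level was lower than brown (-1.05 ± 0.17, adjusted p = 0.0156) and than white (-0.88 ± 0.17, adjusted p = 0.0191), and its 95% interval for brown against white ran from -0.26 to 0.59. Timm17a, which pairs with it, and Timm50, the receptor that guides precursors to the channel, had the same pattern of calls. Timm17a was lower in marrow-derived than in brown and in white (-1.13 ± 0.16 and -0.87 ± 0.16). Timm50 stood at 9.38 and 8.78 in marrow-derived arrays, 10.50 and 10.54 in brown arrays and 9.93 and 10.37 in white arrays, with differences of -1.44 ± 0.27 from brown (adjusted p = 0.0226) and -1.07 ± 0.27 from white (adjusted p = 0.0402). The Timm50 arrays labelled marrow-derived lay 0.59 apart, the widest of any member.

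Timm44, the anchor of the import motor, had its highest values in brown. It stood at 8.70 and 9.26 in marrow-derived arrays, 10.87 and 10.18 in brown arrays and 9.003 and 9.17 in white arrays, so that marrow-derived and white overlapped. Marrow-derived was lower than brown for Timm44 (-1.54 ± 0.31, adjusted p = 0.0277), and differed by 1.44 ± 0.31 between brown and white (adjusted p = 0.0527) and by -0.11 ± 0.31 between marrow-derived and white (adjusted p = 0.84). In the fit over all probe sets, both other Timm44 probe sets were higher in brown than in white (1.45, adjusted p = 0.0256, and 1.51, adjusted p = 0.038).

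Timm21, which links the TOM and TIM23 complexes, was lower in marrow-derived than in brown (-1.09 ± 0.16, adjusted p = 0.0131), and its difference from white was -0.40 ± 0.16. Timm22, the channel of the carrier translocase, was lower than in brown at adjusted p = 0.0482 (-0.84 ± 0.21), and its difference from white of -0.77 ± 0.21 had an adjusted p = 0.0518. Its call against brown held in 2 of the 14 alternatives. Timm29, a TIM22 subunit in human cells, did not pass (-0.52 ± 0.16 against brown). Timm17b, the paralog of Timm17a, stood between 9.25 and 9.58 on all arrays, with a marrow-derived minus white difference of 0.00 ± 0.17 (95% interval -0.43 to 0.44). Timmdc1 shares the family symbol but is known in human cells as an assembly factor of respiratory complex I. It was 3.22-fold lower in marrow-derived than in brown (-1.69 ± 0.20, adjusted p = 0.00722) and 2.61-fold lower than in white (-1.38 ± 0.20, adjusted p = 0.00934).

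**Figure D3:**
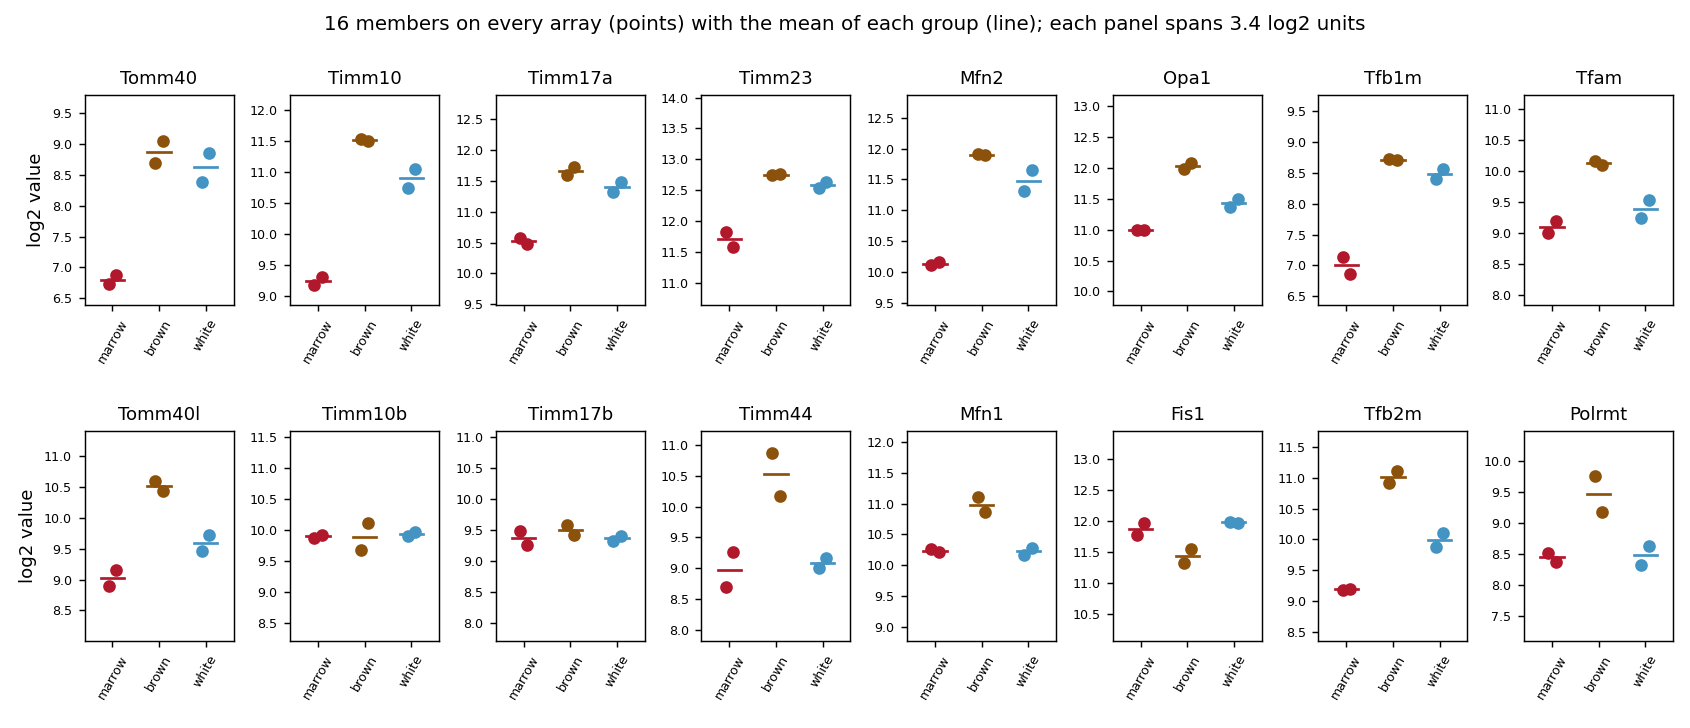
Log2 values of 16 members on each array (points) with group means (lines), marrow-derived, brown and white from left to right; every panel spans 3.4 log2 units. Upper panels such as Tomm40 and Mfn2 show marrow-derived arrays far below the rest, while Timm44, Mfn1 and Polrmt below them are high in brown.

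Fusion genes were all lower in marrow-derived than in brown adipocytes (3 of 3), and 1 of 3 was lower than in white. Of all genes 11.7% and 13.6% were lower in these comparisons. Mfn2, the mitofusin that also tethers mitochondria to the endoplasmic reticulum, stood at 10.12 and 10.16 in marrow-derived arrays, 11.91 and 11.89 in brown arrays and 11.31 and 11.65 in white arrays. It was 3.41-fold lower in marrow-derived than in brown (-1.77 ± 0.18, adjusted p = 0.00555) and 2.54-fold lower than in white (-1.34 ± 0.18, adjusted p = 0.0083). Mfn1, the other mitofusin, stood at 10.26 and 10.21 in marrow-derived arrays, 11.10 and 10.87 in brown arrays and 10.17 and 10.28 in white arrays. Marrow-derived and white values of Mfn1 overlapped (0.01 ± 0.17, 95% interval -0.41 to 0.43), and it was lower in marrow-derived than in brown (-0.75 ± 0.17, adjusted p = 0.035). This call against brown held in 5 of the 14 alternatives. Brown minus white for Mfn1 was 0.76 ± 0.17 with an adjusted p = 0.0545, and 0.84 and 0.87 on its other probe sets with adjusted p = 0.0404 and 0.0385.

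Opa1, the fusion enzyme of the inner membrane that also shapes the cristae, had different sizes of difference on its 3 probe sets. The brightest stood at 11.001 and 10.996 in marrow-derived arrays, 11.99 and 12.08 in brown arrays and 11.36 and 11.49 in white arrays. It was lower in marrow-derived than in brown (-1.03 ± 0.15, adjusted p = 0.0131), and it differed from white by -0.43 ± 0.15 (adjusted p = 0.103). The other probe sets passed in every comparison of the fit over all probe sets. They differed by -2.25 and -2.56 between marrow-derived and brown, by -0.90 and -1.32 between marrow-derived and white, and by 1.34 and 1.24 between brown and white.

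None of the 3 fission genes passed in any limma comparison, where 65.9% of all genes passed in none. At an unadjusted p under 0.05 there were 2 for marrow-derived against brown, 1 for brown against white and 0 for marrow-derived against white. Of all 17720 genes, 6364, 4625 and 6869 had such a p in these comparisons. Fis1 stood at 11.78 and 11.97 in marrow-derived arrays, 11.32 and 11.55 in brown arrays and 11.99 and 11.98 in white arrays. Its brown values lay below the rest, the reverse of the fusion genes, with a brown minus white difference of -0.55 ± 0.17 (adjusted p = 0.124) that was -0.57 on its second probe set. Dnm1l, the dividing GTPase, stood at 9.92 and 9.97 in marrow-derived arrays, 10.54 and 10.42 in brown arrays and 10.16 and 10.18 in white arrays. Its difference of -0.53 ± 0.15 between marrow-derived and brown had an adjusted p = 0.0658. Mff differed by -0.47 ± 0.16 in the same comparison. On the log2 scale, Opa1 and Fis1 moved apart by 1.15 in brown relative to white, a contrast that was not tested.

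All 4 genes grouped under mitochondrial transcription, Tfb1m among them, were lower in marrow-derived than in brown adipocytes. Tfb2m and Tfb1m were also lower than in white. Of all genes 11.7% and 13.6% were lower in these comparisons. Tfb2m, which opens the promoter for the polymerase, stood at 9.19 and 9.20 in marrow-derived arrays, 10.91 and 11.10 in brown arrays and 9.88 and 10.10 in white arrays. All of its comparisons passed: -1.82 ± 0.17 for marrow-derived against brown (adjusted p = 0.00446), -0.80 ± 0.17 for marrow-derived against white (adjusted p = 0.0264) and 1.02 ± 0.17 for brown against white (adjusted p = 0.0278). Tfb1m, which methylates the small mitochondrial ribosomal RNA, stood at 7.14 and 6.86 in marrow-derived arrays, 8.72 and 8.70 in brown arrays and 8.41 and 8.56 in white arrays. It was 3.28-fold below brown (-1.71 ± 0.18, adjusted p = 0.00564) and 2.80-fold lower than in white (-1.49 ± 0.18, adjusted p = 0.00668). Brown minus white for Tfb1m was 0.23 ± 0.18, and the call against white held under all 14 alternatives.

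Tfam, which packages the mitochondrial genome, stood at 8.99 and 9.18 in marrow-derived arrays, 10.17 and 10.09 in brown arrays and 9.25 and 9.54 in white arrays. Tfam was lower in marrow-derived than in brown (-1.04 ± 0.18, adjusted p = 0.0195), and did not pass against white (-0.30 ± 0.18, adjusted p = 0.291) or for brown against white (0.74 ± 0.18, adjusted p = 0.0708). Polrmt, the mitochondrial RNA polymerase, stood at 8.51 and 8.38 in marrow-derived arrays, 9.76 and 9.17 in brown arrays and 8.33 and 8.63 in white arrays. Marrow-derived and white overlapped for Polrmt, and only its difference from brown passed (-1.02 ± 0.25, adjusted p = 0.0458). That call held in 5 of the 14 alternatives.

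Of the 4 replication genes 1 was lower in marrow-derived than in brown, where 11.7% of all genes were lower. None passed in the other comparisons. Marrow-derived was lower than white in 13.6% of all genes and higher in 12.2%, and brown was higher than white in 5.34% and lower in 3.87%. At an unadjusted p under 0.05 in limma there were 0 for marrow-derived against white and 1 for brown against white. Among all 17720 genes, 6869 and 4625 had such a p. Twnk, the replicative helicase, stood at 8.58 and 8.96 in marrow-derived arrays, 9.88 and 9.90 in brown arrays and 8.97 and 9.37 in white arrays. It was lower in marrow-derived than in brown (-1.12 ± 0.23, adjusted p = 0.0269) and differed from white by -0.40 ± 0.23. Polg, the catalytic subunit of the polymerase, stood at 9.54 and 9.87 in marrow-derived arrays, 10.11 and 9.73 in brown arrays and 9.41 and 9.55 in white arrays. Its marrow-derived and brown values overlapped (-0.22 ± 0.22, 95% interval -0.76 to 0.33), and so did those of the accessory subunit Polg2 (-0.20 ± 0.23). Another Polg probe set, at 4.31 and 4.54 in marrow-derived arrays, 3.34 and 2.66 in brown arrays and 2.93 and 2.83 in white arrays, was under the level set for dim genes but higher in marrow-derived than in brown (1.43 ± 0.27, adjusted p = 0.0226) and than in white (1.54 ± 0.27, adjusted p = 0.0139). Ssbp1, which coats single-stranded mitochondrial DNA, differed by -0.49 ± 0.17 between marrow-derived and brown without passing.

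**Figure D4:**
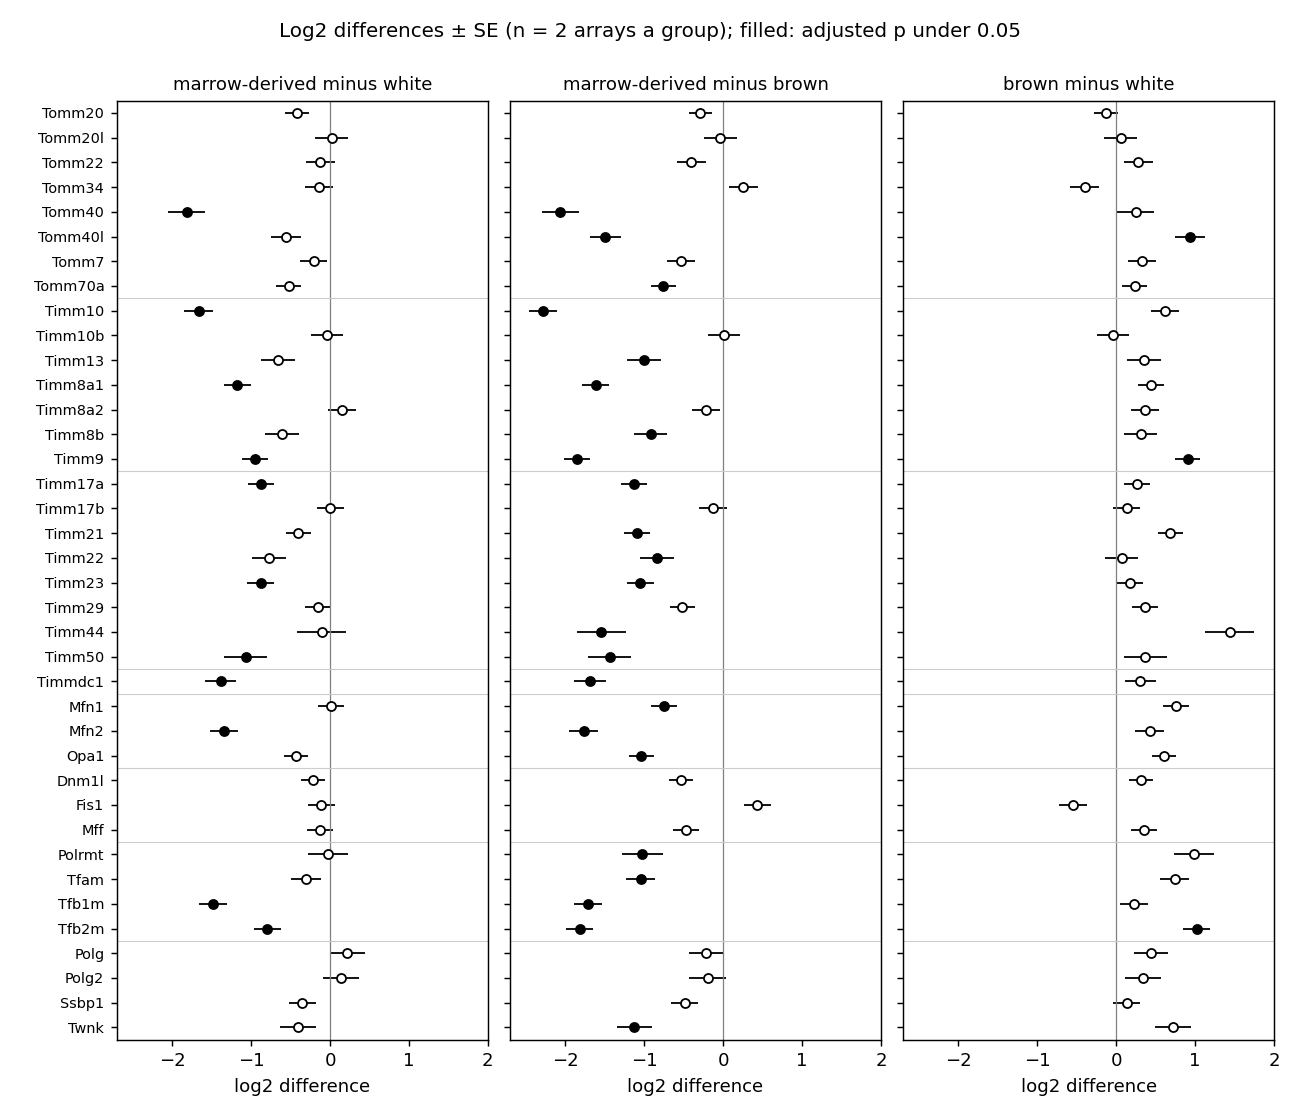
Log2 differences with SE (n = 2 arrays a group) of the 38 members, in the order of roles given in the text, for marrow-derived minus white, marrow-derived minus brown and brown minus white; filled points have an adjusted p under 0.05. Filled points number 11, 23 and 3 in the panels from left to right.

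Read over the 3 comparisons together, 15 members (39.5%; 65.9% of all genes) passed in none, among them all fission genes and both polymerase gamma subunits. In 11 members (28.9%; 2.75% of all genes), among them Opa1, Mfn1, Tfam, Polrmt, Twnk and Timm44, marrow-derived was lower than brown and the other comparisons did not pass. In 9 (23.7%; 6.25% of all genes), which were Tomm40, Timm10, Timm8a1, Timm17a, Timm23, Timm50, Timmdc1, Mfn2 and Tfb1m, marrow-derived arrays were lower than both others while brown against white did not pass. Timm9 and Tfb2m (5.26%; 0.875% of all genes) passed in all in the same directions, and Tomm40l (2.63%; 1.45% of all genes) in both comparisons with brown. These patterns rest on the brightest probe set of each gene. In the fit over all probe sets, the other probe sets of Opa1 passed in every comparison. Those of Mfn1 and Timm44 passed for brown against white as well as for marrow-derived against brown. A difference that did not pass is not shown to be absent, and these 3 comparisons use the same 6 arrays.

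Other genes of the same processes, from lists of import partners, membrane shape and genome upkeep, were counted in the same way. For comparison with each list, 11.7% of all genes were lower in marrow-derived than in brown and 8.71% higher. Against white 13.6% of all genes were lower in marrow-derived and 12.2% higher. Between brown and white 5.34% of all genes were higher in brown and 3.87% lower. Of 22 measured import partners and processing enzymes, 16 were lower in marrow-derived than in brown (median -1.20), 11 were lower than in white (median -0.75), and 2 were higher in brown than in white (median 0.45). Mipep, which trims imported precursors, stood at 7.70 and 7.36 in marrow-derived arrays, 10.86 and 10.85 in brown arrays and 9.25 and 9.53 in white arrays, differing by -3.32 ± 0.20 from brown (adjusted p = 0.0021) and by -1.86 ± 0.20 from white (adjusted p = 0.00552), and it was higher in brown than in white (1.46 ± 0.20, adjusted p = 0.0176). Xpnpep3, an aminopeptidase on the same list, was lower in marrow-derived than in brown (-2.59 ± 0.20) and than in white (-2.50 ± 0.20). Hspa9, the chaperone of the import motor, was lower than in white by a log2 difference of -1.26 ± 0.17. Mtx3, a metaxin, was lower than in brown (-2.07 ± 0.18) and higher in brown than in white (0.91 ± 0.18).

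Of 26 genes of membrane shape and quality control, 19 were lower in marrow-derived than in brown (median -1.07), 11 were lower and 2 higher than in white (median -0.63), and 6 were higher in brown than in white (median 0.43). Mtfp1, an inner membrane protein of fission, had the largest called difference of this list in both comparisons with brown. It stood at 6.33 and 5.63 in marrow-derived arrays, 10.09 and 10.47 in brown arrays and 7.47 and 8.02 in white arrays, 19.8-fold lower in marrow-derived than in brown (-4.30 ± 0.33, adjusted p = 0.00329), with -1.76 ± 0.33 against white (adjusted p = 0.018) and 2.54 ± 0.33 for brown against white (adjusted p = 0.0159). Chchd6, a subunit of the complex that holds crista junctions, was lower in marrow-derived than in white (-2.23 ± 0.22, adjusted p = 0.00466). Miga1, an outer membrane protein of the mitoguardin family, was higher in marrow-derived than in white (2.04 ± 0.34, adjusted p = 0.0131), and so was Inf2, an actin-assembling formin (1.17 ± 0.23, adjusted p = 0.0214, named after its values were seen). Afg3l2, a protease of the inner membrane, and Mief2, a Dnm1l adaptor, were lower in marrow-derived than in brown (-2.26 ± 0.27 and -2.19 ± 0.26). Afg3l2 and Pld6, a phospholipase of the outer membrane, were higher in brown than in white (1.54 ± 0.27 and 1.52 ± 0.23).

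Of 23 further genes of genome upkeep, 11 were lower in marrow-derived than in brown (median -0.49), 8 were lower than in white (median -0.55), and 3 were higher and 1 lower in brown than in white (median 0.34). Slc25a33, a pyrimidine nucleotide carrier, was lower in marrow-derived than in brown (-2.52 ± 0.25, adjusted p = 0.00501) and higher in brown than in white (1.37 ± 0.25, adjusted p = 0.0333). Top1mt, the mitochondrial topoisomerase, was lower in marrow-derived than in white (-1.56 ± 0.26), as were the transcription elongation factor Tefm (-1.31 ± 0.25) and Mpv17 (-1.20 ± 0.25), whose loss in mice depletes mitochondrial DNA. Lonp1, the matrix protease that degrades Tfam, was lower in marrow-derived than in brown (-1.98 ± 0.22) and higher in brown than in white (1.23 ± 0.22, adjusted p = 0.0315), and its difference from white was -0.75 ± 0.22 without passing. The 82 measured respiratory chain subunits, found by symbol, had medians of -0.93 for marrow-derived against brown, -0.40 for marrow-derived against white and 0.53 for brown against white. Of them 53, 19 and 1 were lower and 3, 4 and 20 higher in these comparisons. Of all genes 11.7%, 13.6% and 3.87% were lower and 8.71%, 12.2% and 5.34% higher.

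Promoter sequence was read because so many members were lower together, and 6 windows are shown. They are the members whose windows held the motif of NRF1, of an estrogen-related receptor or of YY1, 2 called members with the ETS motif, and Polg, a member with the same ETS motif that passed in no comparison. Each runs from 250 bases before to 50 after a gene's start, from RefSeq on GRCm38.p6, 5′ to 3′ along the gene, with the motif, found on either strand, in capitals.
Opa1 chr16:29579084-29579383 (+ strand): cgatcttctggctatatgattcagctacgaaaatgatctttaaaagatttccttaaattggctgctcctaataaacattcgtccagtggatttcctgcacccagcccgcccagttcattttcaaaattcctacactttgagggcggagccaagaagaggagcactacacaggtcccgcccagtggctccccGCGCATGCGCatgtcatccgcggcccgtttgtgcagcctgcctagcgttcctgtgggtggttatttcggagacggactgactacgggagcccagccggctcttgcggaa
Timm8b chr9:50603651-50603950 (+ strand): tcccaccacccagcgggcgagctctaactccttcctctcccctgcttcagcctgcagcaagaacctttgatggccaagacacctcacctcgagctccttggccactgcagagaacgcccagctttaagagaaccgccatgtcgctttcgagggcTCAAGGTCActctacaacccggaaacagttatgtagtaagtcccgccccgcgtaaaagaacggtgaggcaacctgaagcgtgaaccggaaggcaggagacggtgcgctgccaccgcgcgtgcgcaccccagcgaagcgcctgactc
Timm50 chr7:28311997-28312296 (- strand): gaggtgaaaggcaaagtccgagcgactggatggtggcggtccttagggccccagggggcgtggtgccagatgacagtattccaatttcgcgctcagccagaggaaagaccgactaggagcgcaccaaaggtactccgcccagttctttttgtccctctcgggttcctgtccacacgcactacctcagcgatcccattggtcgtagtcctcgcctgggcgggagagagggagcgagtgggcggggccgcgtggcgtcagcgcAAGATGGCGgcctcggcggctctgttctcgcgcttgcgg
Timm10 chr2:84826771-84827070 (+ strand): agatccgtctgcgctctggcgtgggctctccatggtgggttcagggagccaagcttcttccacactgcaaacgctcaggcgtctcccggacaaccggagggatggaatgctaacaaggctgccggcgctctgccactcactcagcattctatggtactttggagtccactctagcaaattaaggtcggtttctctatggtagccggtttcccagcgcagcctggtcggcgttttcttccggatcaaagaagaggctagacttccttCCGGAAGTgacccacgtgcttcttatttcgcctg
Tfam chr10:71237995-71238294 (- strand): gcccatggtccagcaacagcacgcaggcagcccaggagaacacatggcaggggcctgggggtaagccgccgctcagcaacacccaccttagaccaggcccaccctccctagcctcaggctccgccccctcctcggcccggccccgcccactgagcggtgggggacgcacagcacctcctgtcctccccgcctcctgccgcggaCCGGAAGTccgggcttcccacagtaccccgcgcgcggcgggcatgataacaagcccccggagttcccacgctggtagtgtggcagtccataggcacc
Polg chr7:79466224-79466523 (- strand): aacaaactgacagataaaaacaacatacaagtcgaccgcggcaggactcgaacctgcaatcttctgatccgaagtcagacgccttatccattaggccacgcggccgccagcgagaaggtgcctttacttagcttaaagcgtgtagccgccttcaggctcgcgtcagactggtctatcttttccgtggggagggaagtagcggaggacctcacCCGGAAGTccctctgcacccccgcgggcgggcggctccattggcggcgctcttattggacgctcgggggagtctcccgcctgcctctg

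The letters searched on both strands were the 10-letter palindrome in capitals in the Opa1 window for NRF1, CCGGAAGT for the ETS family to which GABPA belongs, AAGATGGCG for YY1 and TCAAGGTCA for estrogen-related receptors; none of them contains another. Windows were at hand for 35 of the 38 members. The ETS letters occurred in 12 of these (34.3%), against 6.73% of 13995 measured genes with a window, and in 3.89% of all 32851 windows in the table. They occurred in 7 of 21 members that were lower in marrow-derived than in brown (33.3%) and in 5 of 14 that were not called (35.7%). The ETS match began at -47 bases from the start in Tfam and at -38 in Polg, where negative is upstream, and 16 bases past the start in Timm10. NRF1, YY1 and estrogen-related receptor letters each occurred in 1 member, which were Opa1, Timm50 and Timm8b, against 1.77%, 2.58% and 0.407% of measured genes and 0.971%, 1.40% and 0.423% of all windows. A match is a description of letters and not of binding.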

How the data were processed

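RNA from 6 samples of sorted or floated mouse adipocytes was amplified, labelled with biotin and hybridised to arrays, per the labels' protocols. The deposited values are log2 expression per probe set, 1 column per array; the submitters' processing notes name the Robust Multi-array Average (RMA) method and the Partek software without version or role, and the log base was taken from the values. RMA gives no detection calls, and values near 2 to 3 lie near background.

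The platform annotation gave 1 symbol to 33565 of 43057 probe sets, more than 1 to 857 and none to 8635. Each of 17720 genes was represented by its brightest probe set by mean. Group means of all 6 arrays were fitted with limma 3.58.1 in R 4.3.3, with contrasts and empirical Bayes moderation (3 residual and 2.35 prior degrees of freedom), two-sided tests and Benjamini-Hochberg adjustment over all genes at 0.05. The fit was tested on simulated data. The members and gene lists were chosen with earlier results of these data known. Values in every array are given for up to 2 called members with the largest difference per role and comparison and for 10 fixed members, and up to 3 called genes per list of other pathway genes are named. Alternatives changed the gene summary, scaling, filter on dim genes, spread estimate, samples, threshold and replicate block. The unplanned comparisons of single marrow-derived arrays and the respiratory chain list were added after seeing the data.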

Additional observations from a re-analysis of the deposited data

How the results depend on the processing

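With 2 arrays per group, all 37 called differences among 114 kept their sign in the 14 refits tried, 17 of them were called in at least 12 and 3 in every one. The call for Timm22 against brown held in 2. Those for Mfn1 and Polrmt against brown, Timm50 against white and Tomm40l for brown against white held in 5. Those for Tomm70a and Timm8b against brown and Tfb2m against white held in 6. The refits were the mean over probe sets, all probe sets fitted, median centring, dim genes left out, a trended and robust spread, no moderation, the fit of only the 2 groups compared, a replicate block and leaving out each array. Members lower in marrow-derived than in white numbered 11, and 2 without moderation, 7 in the fit of only these groups, 6 at an adjusted p under 0.01, 7 if also at least 2-fold, and 4 to 10 leaving out each array. Members lower in marrow-derived than in brown numbered 23, and 13 without moderation, 9 at an adjusted p under 0.01 and 1 to 18 leaving out each array. Members higher in brown than in white numbered 3, and 5 with dim genes left out, 7 with a trended and robust spread, 0 without moderation, 0 at an adjusted p under 0.01, 1 if also at least 2-fold and 0 to 4 leaving out each array. With the trended and robust spread 1 member was lower in brown than in white. Why these counts moved was not tested, except that leaving out arrays removes samples. Replicate numbers are not said to pair the samples, and deviations of same-numbered arrays correlated at 0.205 (marrow-derived and white), -0.004 (marrow-derived and brown) and 0.277 (brown and white) over 17720 genes. With the replicate number as a block, 10 members were lower than white, 17 lower than brown and 1 higher in brown.

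Signs turned only in differences that were not called. With the mean over probe sets, marrow-derived minus white became 0.35 for Dnm1l, 0.010 for Mff, 0.0090 for Polrmt, 0.33 for Timm10b, -0.057 for Timm17b and 0.12 for Tomm40l. Marrow-derived minus brown became 0.16 for Dnm1l and 0.45 for Polg, and brown minus white 0.31 for Timm10b and -0.037 for Timm22. With median centring, marrow-derived minus white became -0.025 for Mfn1, -0.032 for Timm17b and -0.014 for Tomm20l, marrow-derived minus brown -0.083 for Timm10b, and brown minus white 0.013 for Timm10b. Leaving out each array, marrow-derived minus white ran from -0.041 to 0.060 for Mfn1, -0.12 to 0.40 for Polg2, -0.18 to 0.12 for Polrmt, -0.11 to 0.12 for Timm17b, -0.39 to 0.17 for Timm44 and -0.060 to 0.10 for Tomm20l. Marrow-derived minus brown ran from -0.46 to 0.064 for Polg2, -0.21 to 0.23 for Timm10b and -0.26 to 0.19 for Tomm20l. Brown minus white ran from -0.27 to 0.18 for Timm10b, -0.14 to 0.27 for Timm22 and -0.17 to 0.28 for Tomm20l. The cause of these turns was not tested. Tomm20l and Timm8a2 lie near background, which limits what their values can show.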
